A study of Mus musculus with 4 samples.

Results

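Neo1, Rgma and Rgmb, the genes of the receptor neogenin and of 2 of its repulsive guidance molecule (RGM) ligands, were followed through every cell class of mouse skin tumours read by single-cell RNA sequencing. They were taken by symbol from the gene rows of all 4 count matrices and are 3 of 31054 rows, a total that includes 1 row for the yellow fluorescent protein (YFP) reporter. The tumours came from mice named LKPR, whose alleles include Lgr5CreER, p53fl/fl and Rosa26-YFP+/+, so that tamoxifen deletes p53 and switches on YFP. Recombination starts in cells that express Lgr5, so YFP marks the descendants of those cells rather than malignancy itself. All mice were of this line and were given 4 injections of 2.5 mg tamoxifen at postnatal day 28. The 2 control libraries came from mice whose treatment is labelled only as control, and the 2 NP137 libraries from mice injected with 10 mg/kg of the anti-netrin-1 antibody every 2 days from 4 weeks after tamoxifen. Tumours appeared 7 to 9 weeks after tamoxifen, and all live cells were sorted. Whether each library is its own animal is not labelled. Sex-linked transcripts, given below, differed between the 2 controls, so these were not the same animal. NP137 1 held cells of both sexes and so of more than 1 animal. Each p of NP137 against control measures the spread between these 4 samples, part of which may be technical. Each p between cell classes instead measures the spread left between counts summed per class and library, after a term for the library.

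Neogenin is a transmembrane receptor of the same family as DCC. It binds netrin-1, the target of NP137, and it binds the RGM proteins, which are held on the cell surface by a lipid anchor. RGM proteins also act as co-receptors that bring bone morphogenetic proteins (BMPs) to their receptors, and RGMb is a known binding partner of the checkpoint ligand PD-L2. In nerve cells, RGMa on neogenin stops growing axons.

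The members lie on different chromosomes of GRCm38. Neo1 (ENSMUSG00000032340) spans chr9:58874687-59036441 on the minus strand, Rgma (ENSMUSG00000070509) chr7:73375509-73419899 on the plus strand and Rgmb (ENSMUSG00000048027) chr17:15803188-15831039 on the minus strand. Annotated antisense genes overlap Neo1 (Gm47271) and Rgma (A730056A06Rik). Both have rows of their own in the files, and no source used here states whether strand was used in counting. RefSeq promoter windows of 300 bases, in build GRCm38.p6, were matched for Neo1 (1 window) and Rgmb (3 windows). They are shown because Rgmb, and not Neo1, passed the test between the tumour states. Capitals mark CAGGTG, the E-box letters known to be bound by Snail and Zeb proteins in epithelial-mesenchymal transition, and TATAAA, the TATA box.
Neo1, chr9:59036392-59036691, minus strand: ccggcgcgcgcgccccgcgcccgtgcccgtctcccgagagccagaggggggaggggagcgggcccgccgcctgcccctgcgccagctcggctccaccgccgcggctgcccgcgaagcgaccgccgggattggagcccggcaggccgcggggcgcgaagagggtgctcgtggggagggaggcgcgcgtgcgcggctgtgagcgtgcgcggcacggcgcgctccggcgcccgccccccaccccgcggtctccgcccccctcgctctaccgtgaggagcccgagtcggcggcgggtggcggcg
Rgmb, chr17:15831197-15831496, minus strand: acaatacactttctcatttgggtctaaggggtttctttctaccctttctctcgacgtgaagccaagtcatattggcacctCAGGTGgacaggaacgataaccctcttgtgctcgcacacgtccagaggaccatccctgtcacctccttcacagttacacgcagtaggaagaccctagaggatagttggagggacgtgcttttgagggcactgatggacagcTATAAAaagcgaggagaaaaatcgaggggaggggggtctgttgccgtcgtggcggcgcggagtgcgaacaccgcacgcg
The Neo1 window is 82.7% G and C, more than 99.6% of all promoter windows, and holds neither motif. The Rgmb window shown is 54% G and C, with 1 CAGGTG and 1 TATAAA. It belongs to a RefSeq start upstream of the gene span given above. The other 2 Rgmb windows, chr17:15831016-15831315 and chr17:15826517-15826816, hold no CAGGTG and are 66.0% and 65.3% G and C. The first of them holds 1 TATAAA and the second none, so the CAGGTG match depends on which start is taken. Over both strands of all 32851 windows, CAGGTG stands in 20.2% and TATAAA in 13.6%. These are matches of letters in a window and were not tested as binding sites.

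Barcodes numbered 12792 (control 1), 8328 (control 2), 18146 (NP137 1) and 17745 (NP137 2), with 69517664 to 149021188 UMIs (unique molecular identifiers, each counting 1 captured transcript) per library. After filters 50887 cells remained, of which 75.3% passed a marker gate for a cell class. Pairs of libraries shared 24 to 86 barcodes. Control 1 and NP137 1 carry the same date in the names of their files, and the others later, different dates. By sex-linked transcripts control 1 and NP137 2 were female, control 2 male, and NP137 1 held cells of both kinds, where 28.8% of cells showed Xist without Y-linked genes and 16.9% the reverse. Tumour cells were gated by at least 2 YFP UMIs together with epithelial or fibroblast markers, which gave 3163 and 1155 cells in the controls and 3299 and 1060 under NP137. They were split by marker balance into a mesenchymal, an epithelial and a mixed state. The mesenchymal state held 89.6% and 88.2% of the tumour cells of the controls and 12.2% and 11.04% of those of NP137. The share of fibroblast-marker cells with 2 or more YFP UMIs was 49.7% in control 1, 45.1% in control 2, 11.3% in NP137 1 and 2.46% in NP137 2. The same share in macrophage-like cells, in that order, was 3.07%, 1.37%, 3.46% and 0.89%, so both NP137 libraries stood nearer to it than the controls. The other classes are named after 10 markers each and carry the suffix "-like".

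Neo1 stood high in tumour cells, fibroblast-like and epithelial-like cells, and lower in vessel, neutrophil-like, macrophage-like and lymphocyte classes. Levels are given as TMM-scaled CPM (UMIs scaled to one common library total), where TMM is a scaling that makes libraries of different composition comparable. In mesenchymal tumour cells Neo1 stood at 51.4 and 19.2 CPM in control 1 and control 2 and at 25.4 and 26.0 CPM in NP137 1 and NP137 2. In epithelial tumour cells the values, in the same order, were 26.7, 20.8, 18.6 and 37.3 CPM. Control 1 was the highest library in mesenchymal and NP137 2 the highest in epithelial tumour cells, so no group stood apart. Fibroblast-like cells without YFP held 43.3, 26.6, 23.3 and 29.0 CPM, and epithelial-like cells without YFP 27.3, 23.7, 18.3 and 25.4 CPM. Neutrophil-like cells ranged from 7.81 to 14.7 CPM, pericyte- or smooth-muscle-like cells from 5.95 to 10.2, endothelial-like cells from 3.84 to 8.79 and macrophage-like cells from 1.74 to 7.998 CPM. T- or NK-like cells lay between 0 and 4.44 CPM, and 751 B- or plasma-like cells of NP137 2 gave 2.39 CPM. Melanocyte-like cells of NP137 1, the 1 library with enough of them, reached 28.5 CPM on 8 UMIs. Mast- or basophil-like cells lay in the range of tumour cells, on few UMIs: 2 UMIs gave 18.4 CPM in control 1 (95% exact Poisson interval 2.23 to 66.5) and 4 gave 19.7 CPM in NP137 2 (5.36 to 50.3).

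By its mean over the libraries Rgma was highest in fibroblast-like, epithelial-like, mesenchymal tumour and pericyte- or smooth-muscle-like cells. In fibroblast-like cells without YFP it stood at 29.3 and 15.9 CPM in the controls and 15.7 and 9.16 CPM under NP137. Epithelial-like cells without YFP held 21.8, 17.4, 14.1 and 15.5 CPM in control 1, control 2, NP137 1 and NP137 2, and pericyte- or smooth-muscle-like cells 22.3, 14.9, 15.7 and 11.1 CPM. Mesenchymal tumour cells gave 34.1 and 11.7 CPM in the controls and 14.6 and 6.49 CPM under NP137, so the groups overlapped between control 2 and NP137 1. Epithelial tumour cells gave 8.63 and 17.0 against 8.52 and 1.57 CPM. Neutrophil-like cells ranged from 1.88 to 12.9 CPM. Endothelial-like cells reached at most 3.76 CPM and macrophage-like cells at most 4.66 CPM. No Rgma UMI was seen in T- or NK-like cells of any library, where a count of 0 allows up to 10.1, 5.57, 6.66 and 1.31 CPM, and none in the mast-like or melanocyte-like sums.

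Rgmb was also read in vessel and macrophage classes. It stood at 35.3 and 48.4 CPM in mesenchymal tumour cells of the controls and at 21.0 and 13.0 CPM in those of NP137. Epithelial tumour cells held 12.2, 16.6, 12.7 and 15.5 CPM in control 1, control 2, NP137 1 and NP137 2, with overlapping counting intervals. Fibroblast-like cells without YFP showed the same split as mesenchymal tumour cells, with 29.0 and 49.6 CPM in the controls and 17.6 and 16.3 CPM under NP137. Epithelial-like cells without YFP ranged from 14.5 to 21.8 CPM, endothelial-like cells from 14.3 to 18.8, macrophage-like cells from 9.10 to 18.6 and pericyte- or smooth-muscle-like cells from 7.13 to 18.8 CPM. Lower levels were read in T- or NK-like cells, at 5.57 to 13.4 CPM, and in neutrophil-like cells, at 5.37 to 9.19 CPM. Mast-like sums held no Rgmb UMI.

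**Figure D1:**
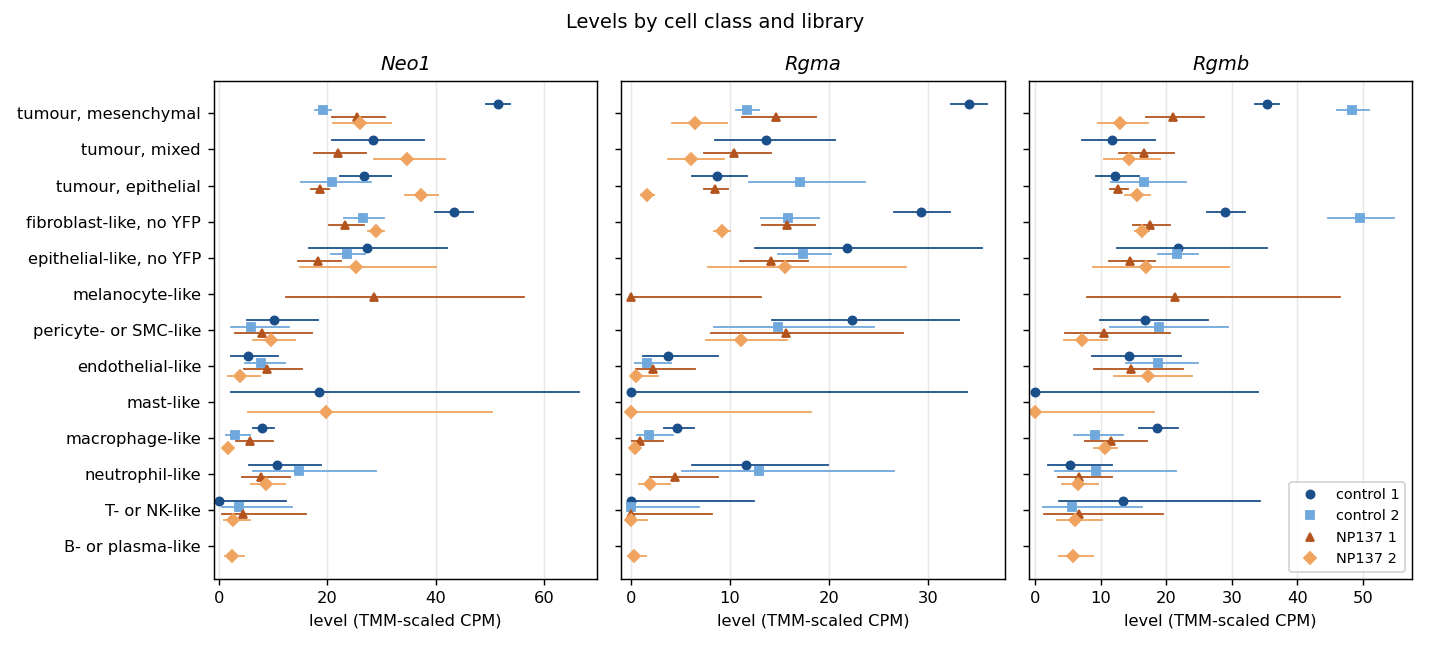
Level of each gene on the x axis, in TMM-scaled CPM, in each class with at least 50 cells, 1 point per library; bars are 95% exact Poisson intervals of the counts. Neo1 and Rgma are low in endothelial-like and macrophage-like cells, where Rgmb stays between 9.10 and 18.8, and control 1 and control 2 stand to the right of the NP137 libraries for Rgmb in mesenchymal tumour cells and fibroblast-like cells.

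The classes were ordered by a fit over 43 class-by-library sums with a term for the library, so that each class was compared with the others inside the same library. For Neo1 the fitted order was fibroblast-like without YFP, mesenchymal tumour, epithelial tumour, epithelial-like without YFP, neutrophil-like, pericyte- or smooth-muscle-like, endothelial-like, macrophage-like and T- or NK-like. The only neighbours in this order that differed by edgeR's quasi-likelihood test were epithelial-like and neutrophil-like cells (log2 ratio 1.31, SE 0.35, adjusted p = 0.0026). For Rgma the order was fibroblast-like, epithelial-like, pericyte- or smooth-muscle-like, mesenchymal tumour, epithelial tumour, neutrophil-like, macrophage-like, endothelial-like and T- or NK-like. Its only neighbours that differed were neutrophil-like and macrophage-like cells (log2 ratio 1.80, SE 0.49, adjusted p = 0.0041), on 35 UMIs in all neutrophil-like cells. Summed markers of other classes were also higher in neutrophil-like than in macrophage-like cells of every library. The 10 fibroblast markers summed to 1682, 1655, 843 and 4304 CPM in neutrophil-like cells of control 1, control 2, NP137 1 and NP137 2, against 898, 394, 441 and 1369 CPM in macrophage-like cells. The 10 epithelial markers summed to 460, 1125, 1812 and 491 CPM, against 194, 325, 776 and 117 CPM. All 10 markers of each list had a UMI in both classes, and their part in the ratios of neutrophil-like cells was not tested. For Rgmb, from mesenchymal tumour, fibroblast-like, epithelial-like, endothelial-like and epithelial tumour cells down to macrophage-like, pericyte- or smooth-muscle-like, T- or NK-like and neutrophil-like cells, no pair of neighbours differed.

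Ratios between chosen classes separated the members. Fibroblast-like cells exceeded endothelial-like cells in Neo1, 4.64 times (log2 ratio 2.21, SE 0.34, adjusted p = 2.9e-06), and in Rgma, 9.78 times (log2 3.29, SE 0.49, adjusted p = 2.8e-06). Rgmb was 1.62 times as high and missed the threshold (adjusted p = 0.058), in a contrast that called 30.6% of 15475 genes. Endothelial-like cells held 13 Rgma UMIs in all libraries together. Against macrophage-like cells, where 46.8% of genes were called, fibroblast-like cells were higher in all 3 members, by log2 2.81 for Neo1, 3.28 for Rgma and 1.02 for Rgmb. The Rgmb call rested on control 2, without which the log2 ratio was 0.52 (adjusted p = 0.13). Epithelial-like cells without YFP exceeded macrophage-like cells in Neo1 (log2 2.47) and Rgma (log2 3.27), while Rgmb at log2 0.49 did not pass (adjusted p = 0.33), with 43.3% of genes called. Epithelial tumour cells gave the same pattern against macrophage-like cells, with log2 ratios of 2.66 for Neo1 and 2.20 for Rgma that passed and 0.25 for Rgmb that did not (adjusted p = 0.46), with 51.6% of genes called.

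Pericytes, the mural cells of small vessels, were set against fibroblast-like and endothelial-like cells. Fibroblast-like cells were 3.52 times as high as pericyte- or smooth-muscle-like cells in Neo1 (log2 1.82, SE 0.34, adjusted p = 1.6e-04) and 2.10 times in Rgmb (log2 1.07, SE 0.30, adjusted p = 0.010), with 17% of genes called. The Rgmb call was lost without control 2, NP137 1 or NP137 2 (adjusted p = 0.056, 0.071 and 0.055). Rgma did not pass there (log2 0.04, 95% interval -0.73 to 0.80). Between the vessel classes Rgma was 9.54 times as high in pericyte- or smooth-muscle-like as in endothelial-like cells (log2 3.25, SE 0.52, adjusted p = 1.2e-05), whereas Neo1 (adjusted p = 0.56) and Rgmb (adjusted p = 0.48) did not pass, with 23.4% of genes called. That Rgma ratio rested on 82 UMIs in all pericyte- or smooth-muscle-like cells and 13 in all endothelial-like cells. In control 1 the 10 fibroblast markers summed to 6229 CPM in the former and 580 CPM in the latter. Their part in the ratio was not tested. Macrophage-like cells were lower than neutrophil-like cells in Rgma (log2 -1.80) and Neo1 (log2 -1.16, adjusted p = 0.014) and higher in Rgmb (log2 0.87, adjusted p = 0.033), with 39.8% of genes called. The Rgma and Neo1 ratios of macrophage-like over neutrophil-like cells went the same way as these classes' fibroblast and epithelial marker sums given above. The Rgmb call was lost without control 1, NP137 1 or NP137 2 (adjusted p = 0.28, 0.14 and 0.096) and the Neo1 call without control 2 or NP137 2 (adjusted p = 0.10 and 0.060). Fibroblast-like and epithelial-like cells without YFP did not differ in any member by the test (35.5% of genes called).

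**Figure D2:**
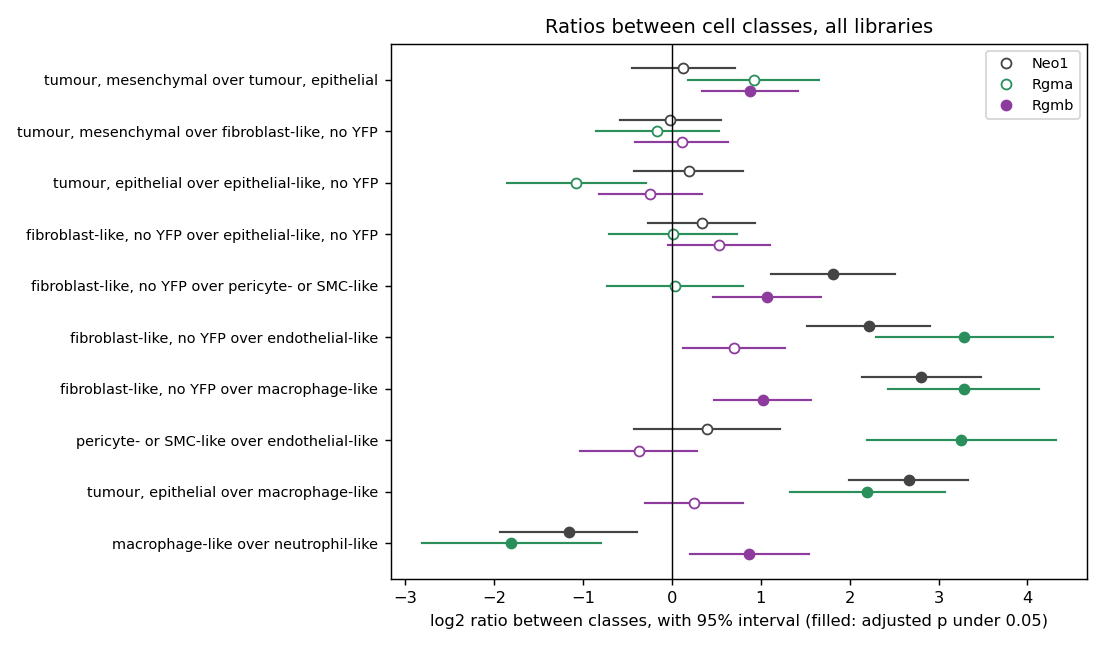
Log2 ratio between pairs of classes on the x axis for the 3 genes, with 95% intervals from the fit over 43 sums; filled points passed an adjusted p of 0.05. Rgma points stand near 3.3 wherever endothelial-like or macrophage-like cells are the lower class of fibroblast-like cells, and Rgmb points stay between -0.37 and 1.07.

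Between the 2 main tumour states Rgmb alone passed the test. It was 1.84 times as high in mesenchymal as in epithelial tumour cells (log2 0.88, SE 0.27, 95% interval 0.34 to 1.42, adjusted p = 0.013), in a contrast that called 25.7% of genes. Within libraries, the mesenchymal level was above the epithelial one in control 1, control 2 and NP137 1 and below it in NP137 2 (13.0 against 15.5 CPM). Without control 1, control 2 or NP137 1 the adjusted p was 0.11, 0.14 and 0.058, with log2 ratios of 0.75, 0.57 and 0.98. Rgma had a log2 ratio of similar size and a wider error (0.92, SE 0.36, adjusted p = 0.059), and passed without control 2 (log2 1.38, adjusted p = 0.0092). Neo1 did not pass (log2 0.13, 95% interval -0.45 to 0.71, adjusted p = 0.81). Control 2 was the library with Rgma lower in the mesenchymal than in the epithelial state (11.7 against 17.0 CPM).

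Tumour cells were also set against cells without YFP that carry the same markers. Mesenchymal tumour cells and fibroblast-like cells did not differ in any member by the test (9.27% of genes called), with 95% intervals of the log2 ratio of -0.58 to 0.55 for Neo1, -0.86 to 0.53 for Rgma and -0.41 to 0.63 for Rgmb. Epithelial tumour cells over epithelial-like cells gave a log2 ratio for Rgma that did not pass (-1.07, SE 0.38, adjusted p = 0.054, 15.3% of genes called). That contrast passed by DESeq2 (adjusted p = 0.030), with a Cdkn2a UMI as a second gate (adjusted p = 0.040) and without control 2 (adjusted p = 0.017). With 1 library left out its log2 ratio ranged from -1.47 to -0.60, and its edgeR adjusted p from 0.017 to 0.27. Neo1 (log2 0.19) and Rgmb (log2 -0.24) did not pass there. Cdkn2a, known to accumulate in cells without p53, stood at 557 and 384 CPM in the fibroblast-like cells without YFP of the controls against 62.9 and 26.3 CPM in those of NP137, and at 136, 22.9, 44.2 and 4.53 CPM in the macrophage-like cells of control 1, control 2, NP137 1 and NP137 2. The fibroblast-like class of the controls therefore carried more of this tumour-cell transcript, and its part in the levels of that class was not tested. With cells that had a Cdkn2a UMI left out, Rgmb in fibroblast-like cells was 22.3 and 40.5 CPM in the controls and 17.5 and 17.0 CPM under NP137. Leaving them out kept 676 of 2008 fibroblast-like cells in control 1 and 649 of 1034 in control 2. Under NP137 it kept 2431 of 2835 in NP137 1 and 3595 of 4445 in NP137 2.

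NP137 and control libraries were then compared within each class, which asks whether blocking netrin-1 moved its receptor or the receptor's other ligands. No gene passed in tumour cells by edgeR's quasi-likelihood test (0% of 14385 genes tested, with 3067 at an unadjusted p under 0.05), while DESeq2 called 1945 genes, 13.5%. Rgmb stood at 31.7 and 45.9 CPM in all tumour cells of the controls and at 14.1 and 14.8 CPM in those of NP137. It was 2.56 times as high in the controls (log2 fold change -1.35, SE 0.29, 95% interval -2.09 to -0.62), with an adjusted p of 0.099 by edgeR, 0.0049 by DESeq2 and 0.032 by edgeR with no filter on low counts. Rgma stood at 30.3 and 11.95 against 9.42 and 2.94 CPM (log2 -1.69, SE 0.74, adjusted p = 0.28 by edgeR and 0.11 by DESeq2). Neo1 overlapped, at 47.5 and 19.5 against 19.7 and 34.8 CPM (log2 -0.23, 95% interval -1.59 to 1.12, adjusted p = 0.83). Rgma and Rgmb, 2 of the 3 members, were lower in both NP137 libraries than in both controls, as were 31.8% of all genes. Neo1 was lower under NP137 between the libraries of the same date, control 1 and NP137 1, and higher in the other pair. Without control 1 or NP137 1 its log2 fold change was 0.56 and 0.09, and without control 2 it was -0.74.

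The Rgmb difference was then read within each state. In epithelial tumour cells Rgmb gave a log2 fold change of -0.08 (SE 0.36, 95% interval -0.97 to 0.81, adjusted p = 0.96), and in mesenchymal tumour cells of -1.21 (SE 0.37, 95% interval -2.16 to -0.26, adjusted p = 0.38). Its mesenchymal values did not overlap between the groups, which was true, in the same direction, of 29.1% of genes. The difference between the 2 states' effects did not pass (log2 -1.17, SE 0.46, unadjusted p = 0.042, adjusted p = 0.60, with 0.103% of genes called). All tumour cells of the controls were mostly mesenchymal and those of NP137 mostly epithelial, so a change in the share of the states and a change within a state both enter the value for all tumour cells. The 117 mesenchymal cells of NP137 2 had a summed level of the 10 fibroblast markers of 21397 CPM, against 8638, 5626 and 6215 CPM in control 1, control 2 and NP137 1 and 48205 CPM in the fibroblast-like cells of NP137 2. Their summed epithelial markers were 2316 CPM, against 143, 95.05 and 1537 CPM in the other libraries. These cells thus carried more of both marker lists, and the part of that in the Rgmb value was not tested.

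**Figure D3:**
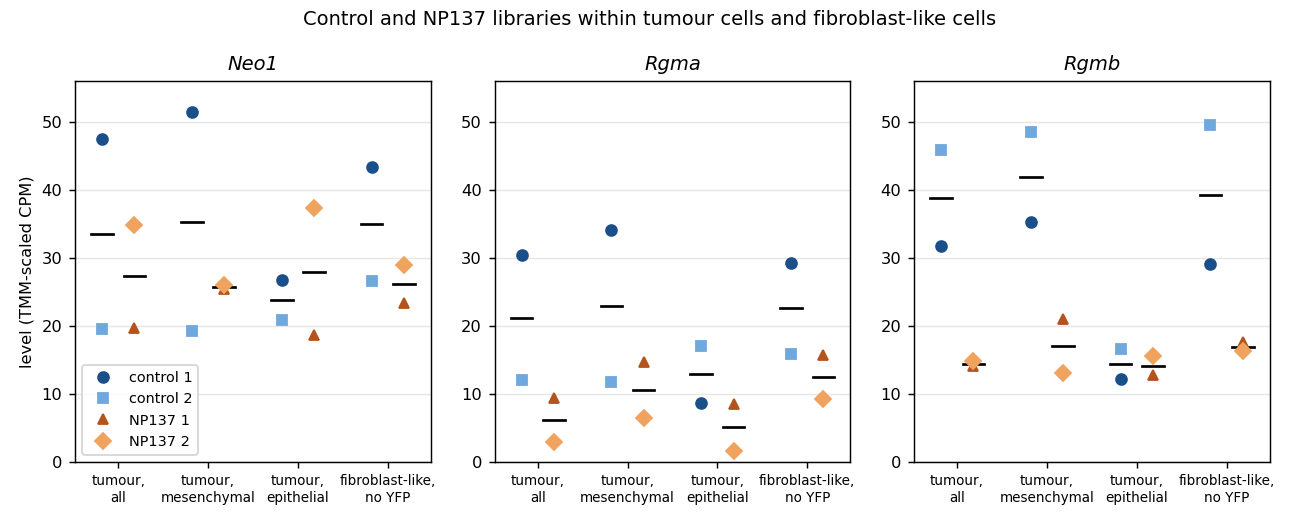
Level of each gene on the y axis, in TMM-scaled CPM, in tumour cells, their 2 main states and fibroblast-like cells; points are libraries and black lines group means of 2. Rgmb control points lie above both NP137 points in all tumour cells, the mesenchymal state and fibroblast-like cells, and between 12.2 and 16.6 with the NP137 points in the epithelial state.

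Outside tumour cells no member passed in any class (0% of genes called by edgeR in each of the other 7 classes and in both tumour states). In fibroblast-like cells Rgmb had a log2 fold change of -1.29 (SE 0.34, adjusted p = 0.38 by edgeR, 0.084 by DESeq2 and 0.044 by edgeR with no filter), Rgma of -0.93 (adjusted p = 0.48) and Neo1 of -0.48 (adjusted p = 0.58). How many genes passed with no filter was counted in tumour cells alone. DESeq2 called 423 of 13254 genes in fibroblast-like cells, 3.19%. Values of Rgma and Rgmb there did not overlap, against 20.1% of genes lower in that way. Other classes also held members whose NP137 values lay below both controls. In neutrophil-like cells these were Rgma, at 11.6 and 12.9 against 4.46 and 1.88 CPM (log2 -2.18, unadjusted p = 0.017), and Neo1, at 10.7 and 14.7 against 7.81 and 8.61 CPM (log2 -0.79), with 8.83% of genes lower in that way. In pericyte- or smooth-muscle-like cells Rgmb stood at 16.7 and 18.8 against 10.5 and 7.13 CPM (log2 -1.11, unadjusted p = 0.040), with 16.9% of genes. None of these passed after adjustment (adjusted p = 0.9995 for both in neutrophil-like cells and 0.92 in pericyte- or smooth-muscle-like cells). The neutrophil-like values rested on few UMIs in control 1, control 2, NP137 1 and NP137 2. These were 13, 7, 8 and 7 for Rgma and 12, 8, 14 and 32 for Neo1. Cdkn2a ranged from 18.6 to 402 CPM in neutrophil-like cells, against 4.53 to 136 CPM in macrophage-like cells. The part of tumour-cell transcripts in these values was not tested. In epithelial-like cells without YFP the log2 fold changes were -0.22 for Neo1, -0.34 for Rgma and -0.46 for Rgmb, the latter 2 without overlap (23.6% of genes), and in endothelial-like cells -0.13 for Neo1 and -0.05 for Rgmb. Rgma in macrophage-like cells was 4.66 and 1.82 CPM in the controls and 0.89 and 0.38 CPM under NP137, on 2 UMIs in NP137 1 and 5 in NP137 2 (log2 -2.66, adjusted p = 0.99, with 18.3% of genes lower without overlap). The NP137 effect did not differ by the test between tumour cells and fibroblast-like cells in a fit of the difference, with log2 0.34 for Neo1 (adjusted p = 0.57), -0.83 for Rgma (adjusted p = 0.28) and -0.06 for Rgmb (95% interval -0.67 to 0.56, adjusted p = 0.92), in which 3.34% of genes were called. With a Cdkn2a UMI as a second gate the differences were 0.64 for Neo1, -0.55 for Rgma and -0.34 for Rgmb, and none passed. The median fibroblast-like cell of control 2 held 1329.5 UMIs, against 27568 in its mesenchymal tumour cells. A YFP UMI could thus be missed more easily in the former, and the part of depth in the main fit was not tested. Without NP137 1 the Rgma difference was -1.45 and passed (adjusted p = 0.036).

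NP137 1 allowed a look inside 1 library at cells of both sexes. In its epithelial tumour cells Rgmb was 14.6 CPM (95% exact Poisson interval 11.4 to 18.4) in cells with Xist alone and 11.5 CPM (9.48 to 13.8) in cells with Y-linked genes alone. Neo1 was 18.2 CPM (14.7 to 22.3) and 20.2 CPM (17.5 to 23.2), and Rgma 10.0 CPM (7.42 to 13.2) and 7.97 CPM (6.31 to 9.93). The intervals, which cover counting error only, overlapped for each member.

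The share of cells with a UMI was compared after thinning every cell to 2000 UMIs, because the libraries differ in depth. In tumour cells the share with Neo1 was then 10.3% and 4.06% in the controls and 4.26% and 7.67% under NP137, that with Rgma 6.41% and 3.09% against 1.76% and 0.76%, and that with Rgmb 6.79% and 8.91% against 3.33% and 3.88%. The exact 2-sided permutation test gave p = 0.333 for Rgma and Rgmb and 1 for Neo1, and 0.333 is the smallest p that 2 against 2 libraries allow. No table measures free RNA in these libraries, so shares in macrophage-like cells are given beside those of tumour cells. In macrophage-like cells, thinned alike, Neo1 was found in 1.42%, 0%, 0.62% and 0.49% of cells of control 1, control 2, NP137 1 and NP137 2, Rgma in 1.12%, 0.36%, 0.16% and 0%, and Rgmb in 3.19%, 1.09%, 1.87% and 2.05%. The mesenchymal tumour cells of NP137 2 held Rgmb in 2 of 115 thinned cells, 1.74% (exact binomial interval 0.211% to 6.14%), an interval that spans the macrophage-like shares. Before thinning the shares in tumour cells were 46.5%, 39.0%, 16.7% and 48.5% for Neo1, 32.2%, 25.9%, 8.52% and 6.04% for Rgma and 33.0%, 61.6%, 12.9% and 26.6% for Rgmb. Neo1 and an RGM gene were found together in 1.47%, 0.53%, 0.25% and 0.57% of thinned tumour cells, beside products of the single shares of 1.33%, 0.48%, 0.21% and 0.35%.

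**Figure D4:**
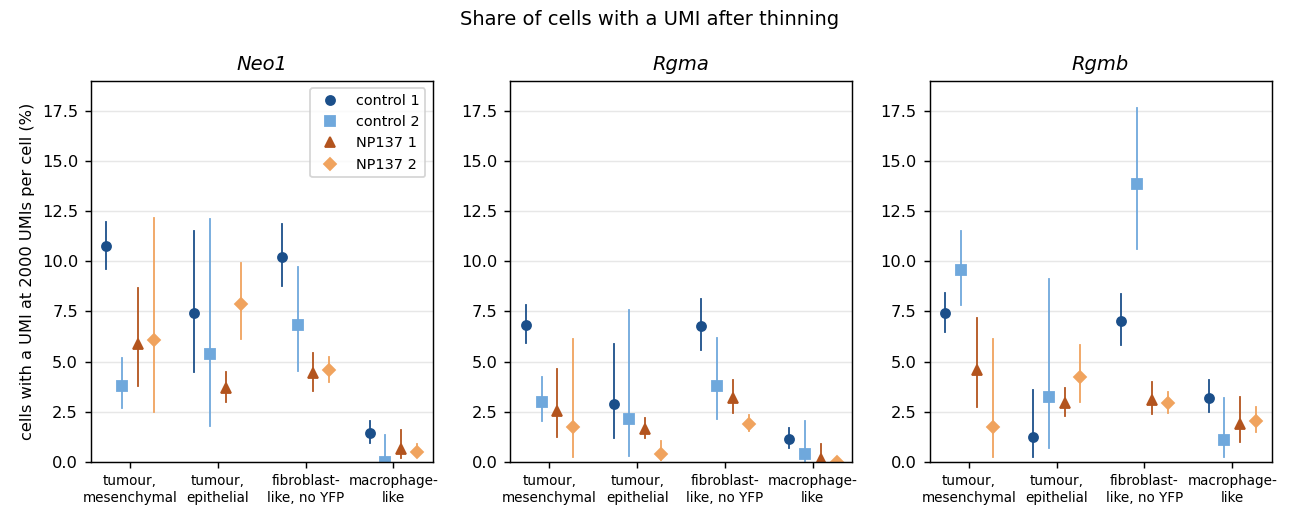
Share of cells with a UMI on the y axis, in percent after thinning to 2000 UMIs per cell, in 4 classes; points are libraries and bars 95% exact binomial intervals. Macrophage-like cells hold each gene in at most 3.19% of cells, and control mesenchymal tumour cells and fibroblast-like cells stand highest for Rgmb.

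The UMIs of the members were also counted by the class they came from. In control 1 and control 2 tumour cells held 63.3% and 52.0% of all Neo1 UMIs, 61.9% and 51.3% of those of Rgma and 59.0% and 64.0% of those of Rgmb, and 51.2% and 49.8% of the UMIs of all genes. In NP137 1 they held 51.7% of Neo1, 45.5% of Rgma and 47.0% of Rgmb UMIs, beside 47.9% of all UMIs. In NP137 2, whose tumour cells gave 16.9% of all UMIs, the shares were 29.3%, 9.75% and 20.4%. In NP137 2 the Rgma share lay below that of all genes and those of Neo1 and Rgmb above it.

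Other genes of the netrin, neogenin and BMP pathways were read beside the members from lists chosen with earlier results of these data known. Between the tumour states 58 of 66 listed genes were tested. In mesenchymal tumour cells 19 were higher and 3 lower, against 14.9% of all genes higher and 10.8% lower, with a median log2 ratio of 0.30 beside -0.005 over all genes. Without control 1 the counts were 14 and 1. None of the listed genes or members is among the markers that split the states. The netrin-1 gene Ntn1 was higher by log2 4.21 (SE 0.40, adjusted p = 1.8e-09), on 3940 UMIs in mesenchymal and 34 in epithelial tumour cells. Its receptor gene Unc5b was higher by 2.33 (SE 0.43). Unc5c passed as well, on 217 UMIs in mesenchymal and 3 in epithelial tumour cells.

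Among BMP ligands, Bmp4 was higher (log2 4.03), on 717 UMIs in mesenchymal and 17 in epithelial tumour cells. Bmp7 was lower (log2 -3.31), and Bmp1, which encodes a protease that trims procollagen rather than a BMP, was higher (log2 1.22). The receptor genes Bmpr1b (log2 2.08, on 268 against 26 UMIs) and Acvrl1 (log2 1.496) and the pseudoreceptor gene Bambi (log2 1.36) were higher. Of 8 tested genes that BMP signals are known to switch on, 3 were higher and none lower by the test, with a list median of -0.39, below that of all genes. Id3 (log2 1.07) and the feedback inhibitor Smad7 (log2 0.94) were higher, and Atoh8 passed on 46 against 2 UMIs. Id1 (log2 -0.78, adjusted p = 0.20), Id2 (-0.52), Id4 (-0.67) and Smad6 (-0.26) had values below 0 that did not pass. Of the extracellular antagonists 6 of 9 were higher and 2 lower. Grem1 (log2 2.80), Gas1 (log2 1.31), listed here though better known as a hedgehog co-receptor, and Twsg1 (log2 0.63) were higher. Chrdl1, Bmper and Chrd passed in the same direction on 6, 7 and 3 UMIs in epithelial tumour cells, against 1165, 277 and 439 in mesenchymal ones. Sostdc1 (log2 -3.38) and Fst (log2 -1.65), which binds activins and BMPs, were lower. Of 9 partners and effectors of neogenin, the nuclear cofactor Lmo4 (log2 1.02) and the GTPase gene Rhoa (log2 0.52) were higher, and of 6 protease genes known to cut neogenin or RGM proteins none passed. Which of these calls lost the threshold when 1 library was left out is given with the effects of processing.

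**Figure D5:**
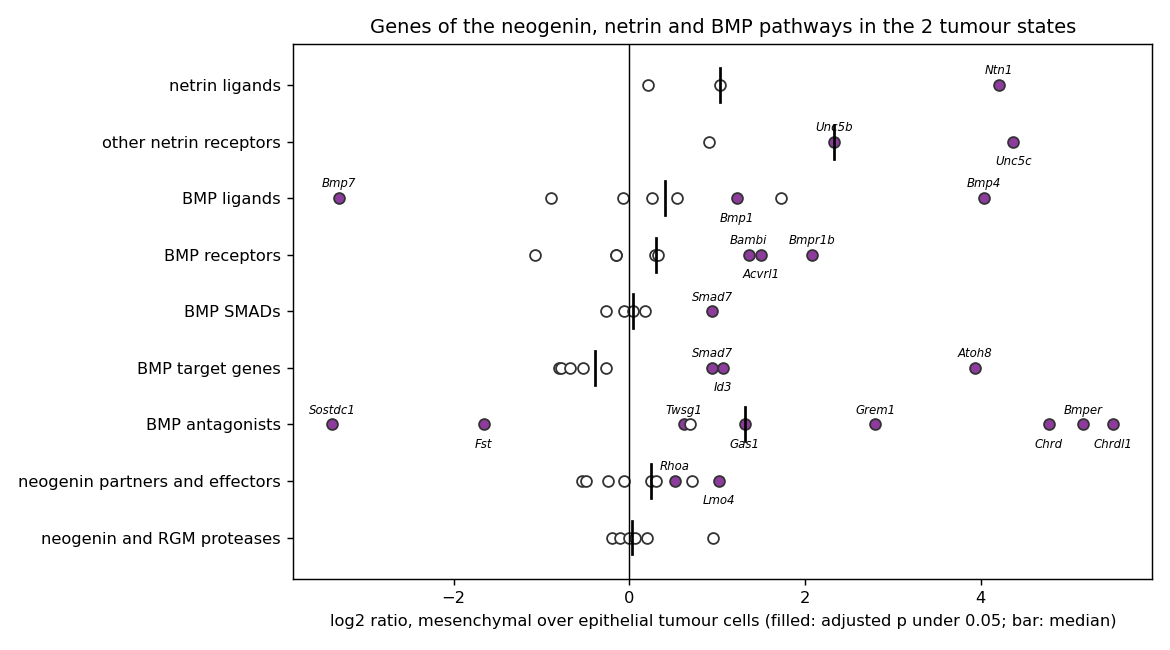
Log2 ratio of mesenchymal over epithelial tumour cells on the x axis for each tested gene of 9 pathway lists; filled points passed an adjusted p of 0.05 and are named, bars are list medians, and Smad7 stands in 2 lists. Antagonists spread from -3.38 for Sostdc1 to 5.51 for Chrdl1, while all protease genes are open points.

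Between NP137 and control tumour cells none of 52 tested pathway genes passed by edgeR. By DESeq2 9 were lower and 3 higher, against 6.91% and 6.61% of all genes, and 27 were lower and 4 higher without overlap of the groups, against 31.8% and 23.4%. Their median log2 fold change was -0.47, beside -0.03 over all genes. Ntn1 stood at 54.8 and 38.7 CPM in the controls and 2.05 and 0.50 CPM under NP137 (log2 -5.08, SE 0.75, edgeR adjusted p = 0.070). Unc5b stood at 51.8 and 66.4 against 19.8 and 11.9 CPM (log2 -1.82, SE 0.35, adjusted p = 0.087). The other genes of largest difference that did not overlap were Grem1 (log2 -1.89), Bambi (-1.74), Lmo4 (-1.23), Gas1 (-1.23), Smad7 (-1.03), Twsg1 (-0.91), the adaptor gene Nck1 (-0.86) and Smad5 (-0.82) on the lower side, and Sostdc1 (2.49) and Fst (2.03) on the higher. Of these 12 genes, 9 passed by DESeq2, all except Gas1, Nck1 and Smad5. These values moved when 1 library was left out. Ntn1 ranged from -6.50 to -4.42 and passed without NP137 1 (adjusted p = 0.040). Grem1 ranged from -2.91 to -1.305, Unc5b from -2.29 to -1.49, Sostdc1 from 1.75 to 3.86 and Fst from 1.501 to 2.87, and none of the 12 genes changed sign. All these values are of all tumour cells, mostly mesenchymal in the controls and mostly epithelial under NP137. Between the states, Ntn1, Unc5b, Grem1, Bambi, Lmo4, Gas1, Smad7 and Twsg1 were higher in mesenchymal cells, as given above. Sostdc1 and Fst were lower there, and Nck1 and Smad5 did not pass. A change in the share of the states thus also enters these values, and its part was not tested. In fibroblast-like cells 52 pathway genes had a median log2 fold change of -0.011, with 27 below 0 and 25 above.

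The genes most like each member in level were sought over the 43 class-by-library sums among 6268 genes with a mean of at least 20 CPM. The sums share libraries and depth, so the correlations are a description. Nearest to Neo1 were Lima1 (Pearson r = 0.87), Enah (0.87), Smo (0.86), Atxn2 (0.84) and Auts2 (0.81). Lima1 and Enah encode regulators of actin filaments. Nearest to Rgma were Gas1 (0.88), Ltbp3 (0.87), Map1lc3a (0.86), Gpc4 (0.84) and Htra1 (0.83), and nearest to Rgmb were Tmem65 (0.87), Cd320 (0.83), Socs6 (0.83), Dst (0.83) and Nudt9 (0.83). Among the members r was 0.61 for Neo1 and Rgma, 0.56 for Rgma and Rgmb and 0.27 for Neo1 and Rgmb.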

How the data were processed

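The authors deposited UMI counts per gene and barcode for 4 libraries. Per the file headers the counting software was 10x version 3.0.2. The submitters' processing notes list Seurat 3.1.5 and the build mm10. For aligner settings, cell calling and strand nothing is stated in the sources used here, and the protocol text names more than 1 kit version. The members, the lists and the tests were chosen with earlier results of these data known. An allele of the mice and a gene of the lists are not reported here. The listed symbols Ntn3 and Hjv had no row in the matrices analysed here, and Hjv is another symbol of Hfe2, which had one.

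Barcodes below 200 genes or with 20% or more mitochondrial UMIs were dropped. A cell joined a class with at least 3 of its 10 markers detected and at least 2 more than of any other class. Tumour cells needed at least 2 YFP UMIs and epithelial or fibroblast markers, and the same markers without a YFP UMI gave the classes without YFP. A margin of 2 markers also set the tumour states. These limits were set after the values were seen. Of 14672, 16563, 10981 and 5191 cells with enough markers in NP137 1, NP137 2, control 1 and control 2, 2252, 2331, 891 and 821 stood at the margin and 1314, 2277, 726 and 719 were 1 marker short of it. Doublets were left to the margin between classes, with no caller, and an alternative dropped cells above the 95th percentile of UMIs of their class and library.

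UMIs were summed per class and library, for at least 50 cells, and tested with edgeR 4.0.16 (glmQLFit robust, TMM, filterByExpr; R 4.3.3, limma 3.58.1), with Benjamini-Hochberg adjustment over all genes of a fit and a threshold of 0.05. All p are 2-sided. Printed CPM were scaled with TMM factors over all class-by-library sums, while each fit used its own factors. NP137 was compared with control per class. Classes were compared with class and library as terms over 43 sums of 13 classes, and the NP137 effect between classes as an interaction. Intervals of levels and shares are exact Poisson and Clopper-Pearson intervals at 95%, and a count of 0 is given as up to 3 UMIs, all for counting error only. Shares used cells thinned to 2000 UMIs.

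Pathway genes were named where they passed, and in NP137 tumour cells the 10 lower and 10 higher of largest change with a mean of at least 10 CPM and groups that do not overlap, of which the higher side filled 2. Replicate numbers were not used to pair the samples in the main fits. Deviations of same-numbered libraries correlated at -0.03 over genes in tumour cells. This cannot settle whether the samples were paired, since the tumour cells of the groups differed in state. On simulated data with tumour-cell means and spread (14061 genes run), the shares of changed genes found by edgeR were 0%, 41.5% and 87.9% at log2 1, 2 and 4, and in fibroblast-like cells (12940 genes) 4.55%, 44.6% and 84.6%. Genes left unchanged were also called, 11 with tumour-cell settings beside 0, 27 and 58 changed genes found. With fibroblast-like settings these were 14 beside 3, 29 and 55. Alternatives were DESeq2 1.42.0, its size factors in edgeR, no filter, each library left out, the sample number as a block, other YFP limits, a margin of 3 markers, a stricter cell filter (500 genes, 10% mitochondrial UMIs), thinning to 1000 UMIs and none. Added after seeing the data were a Cdkn2a UMI as a second gate, at least 5 YFP UMIs and library size alone. Python 3.11.15 with numpy, pandas, scipy and matplotlib was used beside R.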

Additional observations from a re-analysis of the deposited data

How the results depend on the processing

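In NP137 against control tumour cells edgeR called 0 genes. DESeq2 called 1945, no filter on low counts 930, the stricter cell filter 133, library size alone 127, and leaving out 1 library 0 to 59. The Rgmb log2 fold change passed by DESeq2 (-1.33) and with no filter (-1.37). With 1 library left out it ranged from -1.59 to -1.07, Rgma from -2.82 to -0.86 and Neo1 from -0.74 to 0.56. With the sample number as a replicate block, which changed no call of a member, the values were -1.33 for Rgmb (adjusted p = 0.15), -1.78 for Rgma and -0.15 for Neo1, and a library left out leaves 1 in its group, assumed to vary like the other group. Between mesenchymal and epithelial tumour cells the left-out ranges were 0.57 to 1.195 for Rgmb, 0.62 to 1.38 for Rgma and -0.083 to 0.40 for Neo1, and for the effect in tumour cells against fibroblast-like cells -0.17 to 0.053, -1.45 to -0.33 and 0.063 to 0.63. The cause of these changes was not tested.

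Not all values that changed sign were near 0 in the main fit, where Neo1 in macrophage-like cells stood at log2 -0.71. None of the changed values passed the threshold. For Rgmb in epithelial tumour cells these were 0.0032 with no filter and 0.056 with at least 5 YFP UMIs, with a left-out range of -0.27 to 0.17. For Neo1 there it was -0.014 with library size alone, with a range of -0.41 to 0.56. Rgmb in endothelial-like cells was 0.078 without the top 5% of UMIs. Left-out ranges across 0 were -0.90 to 0.50 for Neo1 in mesenchymal tumour cells, -0.43 to 0.10 in epithelial-like, -0.79 to 0.41 in endothelial-like and -1.70 to 0.29 in macrophage-like cells, and for Rgmb -0.20 to 0.17 in endothelial-like and -0.70 to 0.30 in macrophage-like cells. For ratios they were -0.054 to 0.098 for Neo1 in mesenchymal tumour over fibroblast-like cells and -0.035 to 0.33 in epithelial tumour over epithelial-like cells. For Rgma they were -0.23 to 0.095 in fibroblast-like over epithelial-like cells and -0.15 to 0.14 over pericyte- or smooth-muscle-like cells, and DESeq2 gave -0.12 and -0.077.

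Between the tumour states these pathway genes lost the threshold without 1 library: without control 1 Bmpr1b, Fst, Id3, Rhoa, Smad7, Sostdc1 and Twsg1, without control 2 Rhoa and Twsg1, without NP137 1 Id3, Smad7 and Twsg1, and without NP137 2 Atoh8, Bambi and Id3. Each class of few UMIs, above all T- or NK-like, melanocyte-like and mast-like cells, limits the members' levels to wide counting intervals.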

Other observations

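Classes too small for a test held few UMIs of the members. Over 29 Schwann-like cells of control 1, control 2 and NP137 1, 5 Rgmb UMIs were read in each of control 2 and NP137 1, with 3 Neo1 UMIs in NP137 1 and 2 Rgma UMIs in control 2. Dendritic-like cells gave no Neo1 or Rgma UMI in any library and 2 Rgmb UMIs in each control. The other RGM gene, known as Hfe2 or Hjv, did not pass the filter on low counts in any fit.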
